A study of Bos taurus with 16 samples.

Results

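The comparison described here set steers whose gain and feed intake agreed against steers whose gain and intake disagreed. The concordant steers were 4 high gain-high intake and 4 low gain-low intake animals, and the discordant steers were 4 animals of high gain-low intake and 4 of low gain-high intake, so that 8 steers were set against 8 and all 16 steers of the series were used. The groups were formed from the labels alone. The value given for each gene is the mean of the 2 concordant groups minus the mean of the 2 discordant groups on the log2 scale. It is the gain by intake interaction, taken with both main effects in the model, and a difference that follows gain alone or intake alone gives a value of 0. The value is also the mean of 2 differences measured in separate animals. These are high intake minus low intake among the high gain steers (the high gain contrast) and low intake minus high intake among the low gain steers (the low gain contrast).

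All animals were crossbred beef steers fed the same concentrate diet for 84 days. They were chosen from the most extreme animals of each quadrant of gain and intake, after animals with health problems were set aside. Where a sire breed was over-represented in a quadrant, the next ranked steer of another breed was taken. No animal received a treatment. Spleen was sampled near its free end soon after slaughter, and RNA from each steer was hybridised to its own Affymetrix Bovine ST array. The study's methods place 1 steer of every group on each harvest day, but the day, breed and array strip of a given steer were not in the labels used here. Breed makeup differed between the groups, so breed and group cannot be told apart.

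The spleen filters the blood. Old red cells are cleared there by resident macrophages, and lymphocytes meet blood-borne antigen in its follicles and T cell zones. Heat shock proteins are chaperones that keep other proteins folded. Hsp70 proteins hold unfolded clients, DnaJ proteins deliver clients to Hsp70, Hsp110 proteins release them, and Hsp90 with its cochaperones completes folding of many signalling proteins. Their genes are induced together when unfolded proteins accumulate, through the transcription factor HSF1.

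The arrays looked alike in median and in correlation, but not in how closely they followed their group. The limma array weight, lower for an array that strays more from its group, was lowest in high gain-high intake steer 4 (0.5246). It was highest in low gain-low intake steer 4 (1.491). Array medians were between 8.237 and 8.37 and the correlation of pairs of arrays was between 0.9553 and 0.9862. B cell, T cell and red pulp macrophage markers were well measured. All 14 measured B cell markers, all 20 T cell markers and 16 of 17 red pulp macrophage markers lay above the level of the median feature (8.297). Fewer did in some other lists, with 9 of 15 natural killer and cytotoxic, 9 of 16 neutrophil and 10 of 15 endothelial markers. For platelet and plasma cell markers it was 7 of 14 and 7 of 10. The mean over B cell markers was 10.77 to 11.94 in concordant steers and 10.85 to 11.77 in discordant steers. Of 10 pancreas markers 1 lay above that level, and their mean was 7.04 to 7.52 in concordant steers and 7.09 to 7.42 in discordant steers. High gain-low intake steer 2 stood apart in interferon genes, with a mean of 14.42 over the list described below, against 9.91 to 11.51 in the other 15 steers. Low gain-low intake steer 2 had the highest mean of neutrophil markers (11.63), followed by low gain-high intake steer 4 (10.63). In bulk tissue, fewer cells of a type and less RNA per cell cannot be told apart.

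Of 24997 features tested, 1163 (4.65%) had an unadjusted limma p under 0.05 for the concordant minus discordant difference. Of these, 614 (2.46%) were higher and 549 (2.2%) lower in concordant steers. None passed after Benjamini-Hochberg adjustment in limma (smallest adjusted p = 1), and 9 (0.036%) had an unadjusted p under 0.001. The ordinary least squares fit also called 1163 features before adjustment and 0 after it, but these split into 578 higher and 585 lower. With each array centred on its own median the split was 725 higher and 424 lower. At the same threshold 1515 features (6.06%) differed by gain and 850 (3.4%) by intake in these steers. The count for concordance was therefore below the count for gain. Its share of 4.65% was also no larger than a threshold of 0.05 gives by chance. The results that follow describe single genes and gene groups that did not survive correction for multiple tests. Below, a feature or gene is called where its unadjusted limma p was under 0.05, and single genes given as higher or lower were called unless the text says otherwise. Counts of higher and lower members of a list go by sign, and the called members are counted beside them. The exact p beside a gene is from a two-sided permutation of the 16 steers between concordant and discordant, which leaves differences by gain and by intake in the spread. For genes named for a small limma p, the exact p retests the same difference in the same steers and is no separate evidence. With features of the same gene averaged, 870 of 18444 genes (4.72%) were called, 475 (2.58%) higher and 395 (2.14%) lower. The called members of every list below stand against these shares, and some genes belong to more than 1 list. Counts by sign stand against the 48.3% of all genes that were higher. The median standard error of all features was 0.138 and the median size of the difference among the 1163 was 0.353.

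Among the 614 higher features, the low gain-low intake mean was the highest of the 4 group means in 431 (70.2%) and the high gain-high intake mean in 183 (29.8%). Over all features the low gain-low intake mean was the highest in 25.6% and the high gain-high intake mean in 21.8%. This split depended on single steers, and it was 379 against 357 without high gain-high intake steer 2 and 360 against 303 without high gain-high intake steer 3. The lowest mean of the higher features was divided between the discordant groups, with high gain-low intake lowest in 310 and low gain-high intake lowest in 298. Among the 549 lower features the low gain-low intake mean was the lowest in 304 (55.4%) and the high gain-high intake mean in 244 (44.4%), against 26.3% and 25.2% over all features. That order turned when any high gain-high intake steer was left out, with 238 against 258 without steer 1, 258 against 278 without steer 2, 269 against 402 without steer 3 and 247 against 259 without steer 4. Over all features the high gain-high intake mean was also lowest more often in these fits, in 6952, 6892, 7234 and 6858 against 6292 with every steer. The order held in each fit that left out a steer of another group. Both concordant means stood above both discordant means in 555 of the 614 higher features (15.4% of all features) and below them in 498 of the 549 lower features (17.5% of all features), an order that choosing features by this difference largely fixes.

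The contrasts come from different animals, so each can be read beside the other. Over 18444 genes, with features of the same gene averaged, 52.2% had the same sign in both contrasts, and the correlation of the contrasts across genes was 0.102 (a description, since genes are not independent and the spread is shared). Of 471 genes that were higher in the low gain contrast at an unadjusted limma p under 0.05 (2.55% of genes), 307 (65.2%) were also higher in the high gain contrast, and 20 reached that threshold in it. Of 302 genes higher in the high gain contrast (1.64% of genes), 165 (54.6%) were also higher in the low gain contrast, and of 330 lower in it (1.79% of genes), 193 (58.5%) were also lower. Of 389 genes lower in the low gain contrast (2.11% of genes) 199 (51.2%) were lower in the high gain contrast, and 8 reached the threshold in it. Most genes past the threshold in one contrast did not pass it in the other.

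The heat shock chaperones had more called members than any other of the 43 gene lists. Of 35 listed cytosolic heat shock genes 33 were measured, 27 were higher and 20 were higher at an unadjusted limma p under 0.05, against 2.58% of all genes. None was lower at that threshold, against 2.14% of all genes. The median difference was 0.55, with 0.145 in the high gain contrast and 0.61 in the low gain contrast, against -0.005 over all genes. The low gain contrast exceeded the high gain contrast in 26 of the 33. Many of these genes were named by the study for the interaction in these same samples, and their shared direction is no independent evidence. The mean over the list was 11.06, 11.17, 11.18 and 11.67 in the high gain-high intake steers and 12.36, 11.51, 11.61 and 12.04 in the low gain-low intake steers. It was 11.11, 11.05, 11.22 and 10.89 in the high gain-low intake steers and 11.06, 10.93, 11.13 and 11.11 in the low gain-high intake steers. All 4 low gain-low intake steers and high gain-high intake steer 4 lay above every discordant steer, and the other high gain-high intake steers lay among them. Leaving out each steer in turn gave 16 to 22 members called, with the fewest without high gain-high intake steer 4.

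**Figure D1:**
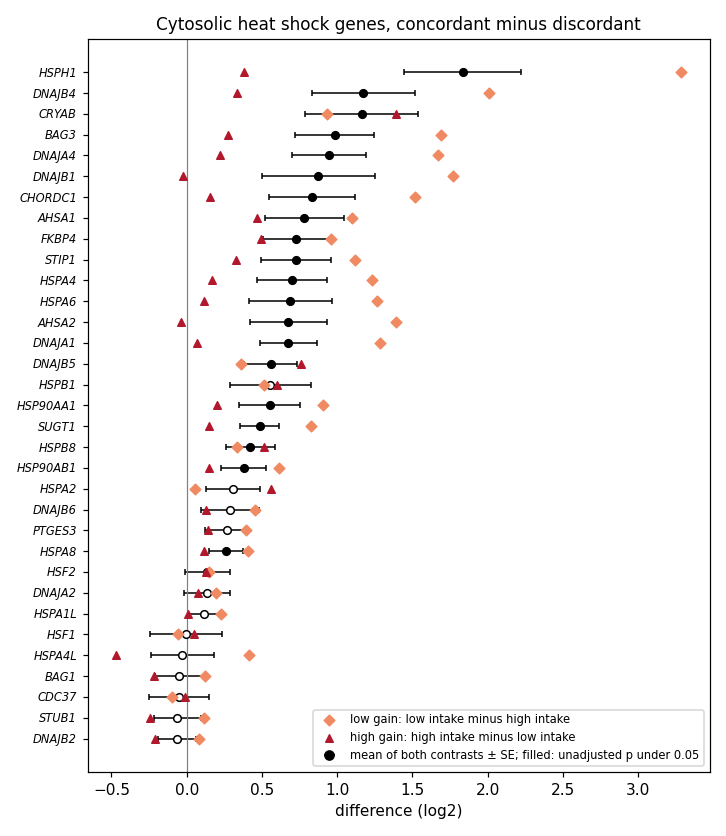
Difference between concordant and discordant steers (log2) for the 33 measured cytosolic heat shock genes. Black points are the mean of both contrasts with its standard error, filled where the unadjusted limma p was under 0.05, triangles are the high gain contrast and diamonds the low gain contrast. For HSPH1 the diamond stands at 3.29 and the triangle at 0.38.

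HSPH1, which encodes an Hsp110 protein, had the largest difference of the list. Its log2 signal was 12.64, 13.22, 12.12 and 13.32 in high gain-high intake steers and 17.23, 13.97, 14.8 and 15.8 in low gain-low intake steers. It was 13.16, 12.62, 12.87 and 11.13 in high gain-low intake steers and 12.31, 12.59, 11.93 and 11.83 in low gain-high intake steers. All low gain-low intake steers were above every other animal, and the other 3 groups overlapped. The concordant minus discordant difference was 1.83 ± 0.40 (SE), 3.56-fold on this scale (unadjusted limma p = 0.000375, exact two-sided permutation p = 0.0073). It was 3.29 in the low gain contrast and 0.38 in the high gain contrast, and between 1.54 and 2.08 when each steer was left out.

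Among the Hsp70 genes, HSPA4, a relative of the Hsp110 proteins, was 0.70 ± 0.24 higher in concordant steers (exact p = 0.0275), with 1.23 in the low gain contrast and 0.17 in the high gain contrast. HSPA6, a strictly inducible Hsp70 in humans, was 0.69 ± 0.28 higher (exact p = 0.0904), and HSPA8, the constitutive Hsp70, 0.26 ± 0.11 higher (exact p = 0.0642). The HSPA8 signal was 17.86 in all 4 low gain-high intake steers, so it had no spread in that group. High gain-low intake steer 1 and low gain-low intake steer 2 had the same value. Neither HSPA6 nor HSPA8 was called without high gain-high intake steer 4 (0.59 and 0.19) or low gain-low intake steers 1 (0.62 and 0.22) and 4 (0.50 and 0.23). HSPA6 was also not called without high gain-low intake steer 1 or low gain-high intake steer 1 (0.64 in both), and HSPA8 without high gain-low intake steer 3 (0.25). The Hsp90 genes HSP90AA1 and HSP90AB1 were 0.55 ± 0.21 and 0.38 ± 0.15 higher (exact p = 0.0211 and exact p = 0.0392). HSP90AB1 was not called without high gain-high intake steers 3 (0.34) and 4 (0.30) or low gain-low intake steer 3 (0.33). For HSP90AA1, 7 of 8 concordant steers lay above the highest discordant steer (15.08), the exception being high gain-high intake steer 1 at 14.51.

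DNAJB4, a DnaJ gene, measured 13.69, 12.84, 13.09 and 14.9 in low gain-low intake steers and 11.54, 11.1, 11.99 and 11.85 in low gain-high intake steers, without overlap. Among high gain steers it measured 11.14, 11.96, 11.09 and 11.78 at high intake and 11.81, 11.58, 11.74 and 9.5 at low intake, so those groups overlapped. Its concordant minus discordant difference was 1.17 ± 0.35 (unadjusted limma p = 0.00438, exact permutation p = 0.0476). DNAJA4 was 0.94 ± 0.25 higher (exact p = 0.00591), with 1.67 in the low gain contrast and 0.22 in the high gain contrast. In DNAJA4 low gain-low intake steer 2 (8.99) lay among the discordant steers while the other 3 measured 10.48 to 11.39. DNAJB1 was 0.87 ± 0.39 higher (exact p = 0.124). It was called in 9 of the 16 fits that each left out 1 steer and not without high gain-high intake steer 4 (0.64), low gain-low intake steers 1 (0.78) and 4 (0.69), high gain-low intake steers 1, 2 and 4 (0.87, 0.88 and 0.81) or low gain-high intake steer 2 (0.66). Both clusters of DNAJA1 were higher, by 0.65 and 0.71 (exact p = 0.0671 and exact p = 0.0224).

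Several cochaperones were higher as well. BAG3, which releases clients from Hsp70, measured 9.14, 9.16, 9.61 and 11.09 in high gain-high intake steers and 11.62, 10.4, 10.69 and 11.01 in low gain-low intake steers. It measured 9.56, 9.39, 9.81 and 9.13 in high gain-low intake steers and 8.75, 9.03, 9.72 and 9.46 in low gain-high intake steers. The 4 low gain-low intake steers and high gain-high intake steer 4 were above all 8 discordant steers, and the difference was 0.98 ± 0.27 (unadjusted limma p = 0.00225, exact permutation p = 0.0169). Of the Hsp90 cochaperones, those called were higher by 0.49 for SUGT1 (exact p = 0.0101), 0.73 for FKBP4 (exact p = 0.00497), 0.72 for STIP1 (exact p = 0.0129), 0.78 for AHSA1 (exact p = 0.0168), 0.83 for CHORDC1 (exact p = 0.0357) and 0.68 for AHSA2 (exact p = 0.0566). In each of these the low gain contrast was the larger. PTGES3 (0.27), CDC37 (-0.05) and STUB1 (-0.06), which also work with Hsp90 and are given here as members of the list, were not called. PTGES3 was called without low gain-low intake steers 2 (0.34) or 3 (0.32) or high gain-low intake steer 3 (0.32).

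In the small heat shock genes CRYAB, HSPB8 and HSPB1 the high gain contrast was the larger by value only. CRYAB, the alpha-B crystallin gene, was 1.16 ± 0.39 higher in concordant steers (exact p = 0.0174), with 1.39 in the high gain contrast and 0.93 in the low gain contrast. This gene was added after its value was seen. The standard error of each of its contrasts was 0.55, so their order is uncertain. HSPB8, a partner of BAG3, was 0.42 ± 0.16 higher (exact p = 0.0295), with 0.51 and 0.33 in these contrasts, and DNAJB5, a DnaJ gene with the same order, was 0.56 ± 0.18 higher (exact p = 0.0115), with 0.76 and 0.36. HSPB1 had a difference of 0.56 ± 0.28 and was not called (exact p = 0.0824), but it was called without high gain-high intake steer 2 (0.75), low gain-low intake steer 2 (0.65) or high gain-low intake steers 3 and 4 (0.64 and 0.63). The transcripts of the heat shock transcription factors were not called, with -0.01 ± 0.25 for HSF1 (exact p = 0.982) and 0.14 ± 0.15 for HSF2 (exact p = 0.398). The sign of HSF1 turned when each array was centred on its median (0.01).

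Chaperones of other compartments were tilted less. Of 11 mitochondrial chaperones 2 were higher at an unadjusted limma p under 0.05, against 2.58% of all genes, and 0 without high gain-high intake steer 1. The list median was 0.148, and between 0.062 and 0.166 when each steer was left out. Of 19 endoplasmic reticulum chaperones 1 was higher at that threshold and the median was 0.065. In the integrated stress response 2 of 16 genes were called higher and 0 lower, against 2.58% and 2.14% of all genes. ATF3 is 1 of these 2 and is counted again among the immediate early genes below. DDIT3, which encodes the stress factor CHOP, was 0.45 ± 0.14 higher (exact p = 0.0124), in the low gain contrast by 0.61 and in the high gain contrast by 0.28. The proteasome list had 15 members higher and 16 lower with 1 called higher, and cytosolic ribosomal proteins had 20 higher and 18 lower with 1 called higher.

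The gene with the smallest p of all was CREM, a transcription factor of the cyclic AMP pathway. It measured 8.41, 8.58, 8.43 and 8.84 in high gain-high intake steers and 9.29, 8.96, 9.38 and 9.45 in low gain-low intake steers, against 8.55, 8.2, 8.3 and 7.99 in high gain-low intake steers and 8.64, 8.24, 8.22 and 8.42 in low gain-high intake steers. The 4 low gain-low intake steers and high gain-high intake steer 4 exceeded every discordant steer. Its difference was 0.60 ± 0.11 (unadjusted limma p = 7.08e-05, adjusted p = 1, exact permutation p = 0.00342), with 0.89 in the low gain contrast and 0.31 in the high gain contrast. By qRT-PCR in the same steers, the study marked a difference across the 4 groups for HSPH1, BAG3, DNAJB1, DNAJC5, SCN4B and GBP7. It reported that 1 of these ran opposite to the array. Genes it measured without marking included CREM, SIRT6 and TSHZ2. These marks do not concern the concordant minus discordant difference itself. SLC5A3, the sodium and myo-inositol cotransporter, measured 13.45, 13.64, 13.11 and 14.35 in high gain-high intake steers and 15.37, 13.56, 15.08 and 14.95 in low gain-low intake steers. It measured 12.86, 12.87, 13.77 and 12.84 in high gain-low intake steers and 13.06, 13.31, 12.68 and 12.83 in low gain-high intake steers. High gain-low intake steer 3 and low gain-high intake steer 2 lay within the concordant range, and the other discordant steers lay below it. The difference was 1.16 ± 0.25, 2.24-fold on this scale (unadjusted limma p = 0.000316, exact permutation p = 0.0028). SLC5A3 also belongs to the osmotic stress list, in which it was the 1 gene of 8 called higher.

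N4BP2L1 and PTPN13, a protein tyrosine phosphatase, shared the shape of HSPH1. N4BP2L1 was 0.76 ± 0.18 higher in concordant steers (exact p = 0.0132), with 1.49 in the low gain contrast and 0.03 in the high gain contrast. PTPN13 was 0.58 ± 0.15 higher (exact p = 0.0159), with 1.14 and 0.02 in these contrasts. ADORA2A, an adenosine receptor coupled to cyclic AMP, had the opposite shape. Its high gain contrast was 0.73 and its low gain contrast 0.04, and the 4 high gain-low intake steers (8.61, 8.75, 8.46 and 8.85) were below all other animals, which measured 9.13 to 9.56 in concordant steers and 8.99 to 9.53 in low gain-high intake steers. The difference of ADORA2A was 0.38 ± 0.10 (exact p = 0.0267), and that of LOC782054 was 0.60 ± 0.14 (exact p = 0.00544), with 0.80 in the high gain contrast and 0.41 in the low gain contrast.

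**Figure D2:**
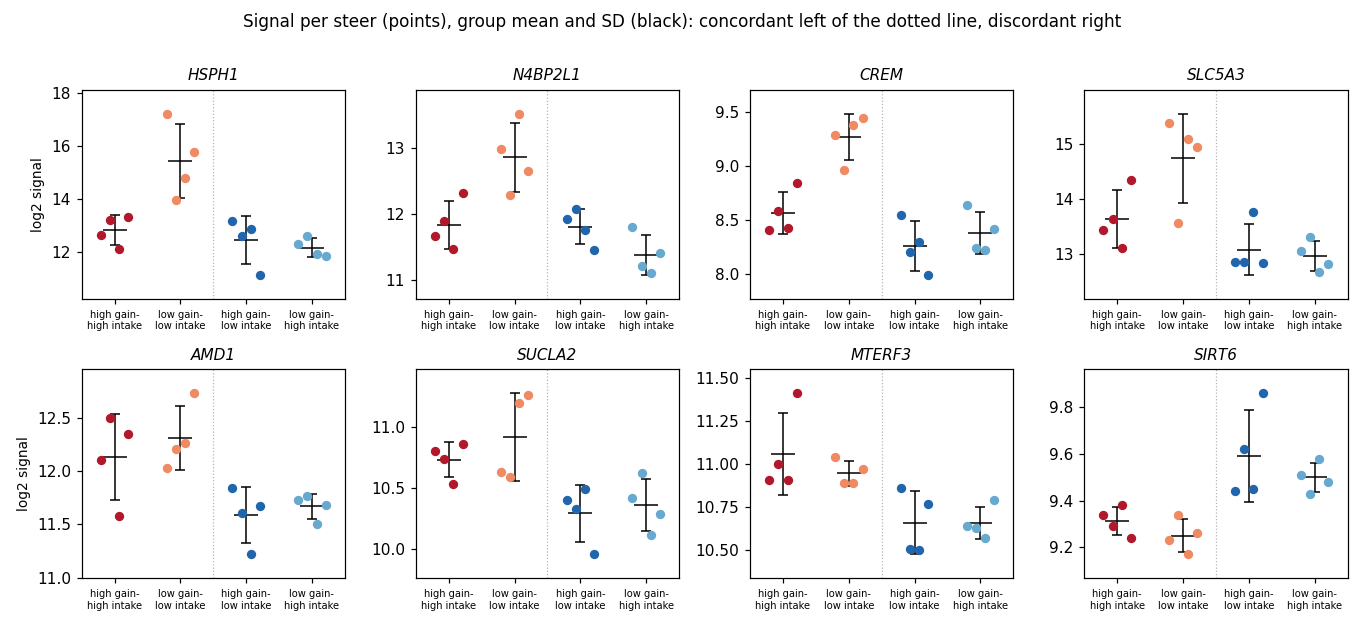
Log2 signal of 8 genes in each of the 16 steers (points), with the group mean and SD in black. The concordant groups stand left of the dotted line and the discordant groups right of it. In HSPH1 the 4 low gain-low intake steers (13.97 to 17.23) are above the other 12, while AMD1, SUCLA2, MTERF3 and SIRT6 have group means that differ the same way in both contrasts.

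A further set of genes differed by similar amounts in both contrasts. AMD1, the S-adenosylmethionine decarboxylase of polyamine synthesis, measured 12.1, 12.5, 11.58 and 12.35 in high gain-high intake steers and 12.03, 12.21, 12.26 and 12.73 in low gain-low intake steers. It measured 11.84, 11.61, 11.22 and 11.67 in high gain-low intake steers and 11.73, 11.77, 11.5 and 11.68 in low gain-high intake steers. All concordant steers but high gain-high intake steer 3 were above the highest discordant steer. The difference was 0.59 ± 0.14 (unadjusted limma p = 0.000764, exact permutation p = 0.00109), with 0.55 in the high gain contrast and 0.64 in the low gain contrast. MAT2A, which makes S-adenosylmethionine, was 0.67 ± 0.18 higher (exact p = 0.00482), with 0.58 and 0.77 in these contrasts. It was added here after its value was seen.

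SUCLA2, a subunit of succinyl-CoA synthetase in the citric acid cycle, measured 10.8, 10.74, 10.53 and 10.86 in high gain-high intake steers and 10.63, 10.59, 11.19 and 11.26 in low gain-low intake steers, against 10.4, 10.33, 10.49 and 9.96 in high gain-low intake steers and 10.42, 10.62, 10.12 and 10.29 in low gain-high intake steers. Its difference was 0.50 ± 0.13 (unadjusted limma p = 0.00117, exact permutation p = 0.000466). Also with both contrasts above 0.4 were COL12A1, a collagen XII chain (0.93 ± 0.23, exact p = 0.00218), IVNS1ABP, a kelch protein (0.50 ± 0.13, exact p = 0.00124), CRLF3, a cytokine receptor-like protein (0.43 ± 0.11, exact p = 0.00155), and ATP2A2, a calcium pump of the endoplasmic reticulum (0.66 ± 0.17, exact p = 0.00715). For IVNS1ABP and CRLF3, 7 of 8 concordant steers were above all discordant steers.

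Complete separation of the groups was rare, with 5 of 24997 features (0.02%), which is near the share that a random split of the steers gives. Of these MTERF3, AP1G2 and SIRT6 carry a gene symbol. MTERF3, which represses mitochondrial transcription, was 10.89 to 11.41 in concordant steers and 10.5 to 10.86 in discordant steers, a difference of 0.34 ± 0.09. These genes were chosen for the lack of overlap, which fixes their permutation p at the smallest that 16 steers allow, so none is given. SIRT6, a NAD-dependent deacylase of chromatin, was 9.34, 9.29, 9.38 and 9.24 in high gain-high intake steers and 9.23, 9.34, 9.17 and 9.26 in low gain-low intake steers. It was 9.44, 9.62, 9.45 and 9.86 in high gain-low intake steers and 9.51, 9.43, 9.58 and 9.48 in low gain-high intake steers. The gap between the groups was small, 9.38 against 9.43, and the difference was -0.27 ± 0.08. AP1G2, a clathrin adaptor subunit, was 7.69 to 7.85 in concordant steers and 7.9 to 8.33 in discordant steers, a difference of -0.31 ± 0.08, at a signal below the median feature.

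Among features above the median signal, those lower in concordant steers with the smallest p included OR10H4, an olfactory receptor gene (-0.45 ± 0.11, exact p = 0.0014), ACBD6, an acyl-CoA binding protein (-0.46 ± 0.13, exact p = 0.00155), TMEM209 (-0.44 ± 0.12, exact p = 0.0103) and SEC14L4 (-0.43 ± 0.12, exact p = 0.00124). RAPH1, the actin regulator lamellipodin, was -0.66 ± 0.19 (exact p = 0.00917), and COG2, a Golgi tethering subunit, -0.30 ± 0.09 (exact p = 0.00948). TK2, the mitochondrial thymidine kinase, was -0.35 ± 0.10 (exact p = 0.0182), and both clusters of AIG1 were lower (-0.82, exact p = 0.00684, and -0.47, exact p = 0.00622). Of immune genes, IL15, a cytokine that sustains natural killer and memory T cells, measured 8.83, 8.57, 9.16 and 8.3 in high gain-high intake steers and 8, 8.92, 8.29 and 9.04 in low gain-low intake steers. It measured 9.2, 9.06, 9.39 and 9.12 in high gain-low intake steers and 9.35, 8.9, 9.05 and 9.21 in low gain-high intake steers. In IL15 5 concordant steers were below every discordant steer and the difference was -0.52 ± 0.16 (unadjusted limma p = 0.00503, exact permutation p = 0.00389). TRIM38, a ubiquitin ligase of innate immune signalling, was -0.53 ± 0.16 (exact p = 0.0416), with -0.69 in the high gain contrast and -0.37 in the low gain contrast.

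**Figure D3:**
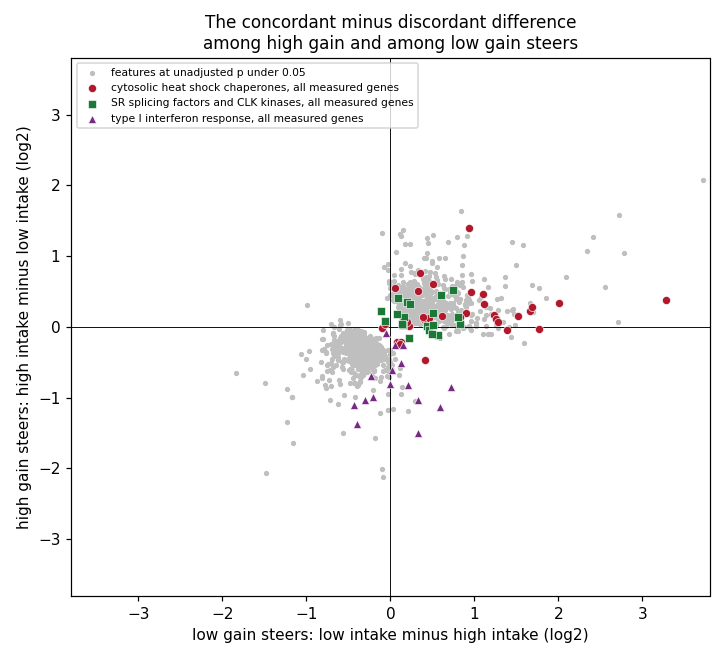
Difference in the high gain contrast (vertical axis, high minus low intake, log2) against the low gain contrast (horizontal axis, low minus high intake, log2). Grey points are the 1163 features at an unadjusted p under 0.05. Heat shock genes extend along the low gain axis, with list medians of 0.61 there and 0.145 on the other axis, and type I interferon genes lie below 0 in the high gain contrast.

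Splicing regulators were tilted in one direction with small sizes. All 20 measured SR proteins and CLK kinases, which select splice sites and phosphorylate SR proteins, were higher in concordant steers, 5 of them at an unadjusted limma p under 0.05, against 2.58% of all genes. The list median was 0.228, with 0.113 in the high gain contrast and 0.338 in the low gain contrast. SRSF7 was 0.64 ± 0.16 higher (exact p = 0.00637), TRA2B 0.27 ± 0.09 (exact p = 0.0329) and CLK4 0.47 ± 0.18 (exact p = 0.0455). The mean over the list was 13.19 to 13.74 in concordant steers and 12.94 to 13.57 in discordant steers, so the groups overlapped.

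Immediate early genes respond to signals within minutes. By sign 21 of 27 were higher, against 48.3% of all genes, and 4 were called higher, against 2.58% of all genes. The 6 that were lower by sign included FOS (-0.36), JUN (-0.34), EGR1 (-0.17) and EGR3 (-0.16), and 0 were called lower. Leaving out 1 steer gave 1 called member without high gain-high intake steer 4, low gain-low intake steer 4 or high gain-low intake steer 3, and 7 without low gain-high intake steer 4. The list median of 0.174 was between 0.039 and 0.266 in these fits. ATF3, a stress-induced transcription factor, was 0.83 ± 0.29 higher (exact p = 0.0305), with 1.52 in the low gain contrast and 0.15 in the high gain contrast. NR4A3, an orphan nuclear receptor, measured 8.2, 9.71, 9.51 and 12.88 in high gain-high intake steers and 11.08, 11.65, 12.97 and 13.71 in low gain-low intake steers, against 9.59, 10.95, 8.67 and 8.82 in high gain-low intake steers and 8.86, 8.3, 10.34 and 11.65 in low gain-high intake steers. Its spread was wide and the difference of 1.56 ± 0.66 (exact p = 0.0744) was called in 9 of the 16 fits that each left out 1 steer. The call was lost without high gain-high intake steer 4 (1.1), low gain-low intake steers 3 (1.46) and 4 (1.34), high gain-low intake steers 3 (1.42) and 4 (1.45) or low gain-high intake steers 1 (1.41) and 2 (1.31).

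Glucocorticoid-induced genes were higher in 11 of 12 cases with a median of 0.419, and 1 was called higher with features of a gene averaged, against 2.58% of all genes. The number called was 0 to 4 when each steer was left out, with 0 without high gain-high intake steer 4 and 4 without low gain-low intake steer 2 or high gain-low intake steer 4. The list mean was 12.15, 12.05, 11.84 and 12.95 in high gain-high intake steers and 12.08, 11.75, 12.35 and 12.59 in low gain-low intake steers, against 11.62, 11.4, 11.84 and 12.21 in high gain-low intake steers and 11.92, 11.52, 11.25 and 11.92 in low gain-high intake steers. FKBP5, a cochaperone that restrains the glucocorticoid receptor, had a difference of 1.04 ± 0.52 (exact p = 0.0963) and was called only without high gain-low intake steers 3 (1.25) or 4 (1.23) or low gain-high intake steers 1 (1.22) or 2 (1.35). MT2A, a metallothionein, had 1.31 ± 0.63 (exact p = 0.0713) and was not called in the fit over features. It was called there without high gain-high intake steers 2 (1.55) or 3 (1.74), low gain-low intake steer 2 (1.45) or high gain-low intake steer 4 (1.46). High gain-high intake steer 4 measured 16.39 where the other 15 steers measured at most 13.43, and without it the difference was 0.72.

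THBS1, encoding thrombospondin, a platelet and matrix protein, had the largest difference of the named genes. It measured 13.34, 14.02, 12.27 and 17.59 in high gain-high intake steers and 15.42, 13.98, 16.39 and 15.89 in low gain-low intake steers. It measured 13.1, 12.08, 12.69 and 13.03 in high gain-low intake steers and 11.63, 12.15, 12.51 and 14.5 in low gain-high intake steers. The difference was 2.15 ± 0.64, 4.44-fold on this scale (unadjusted limma p = 0.00415, exact permutation p = 0.00886), and between 1.60 and 2.49 when each steer was left out. It was the 1 called gene of the platelet and megakaryocyte list, in which 7 genes were higher and 7 lower with a median of -0.005. PF4, platelet factor 4, had a difference of -0.29 and was not called. Of 29 measured coagulation and fibrinolysis genes 17 were higher and 12 lower, with 5 called higher and 0 lower, against 2.58% and 2.14% of all genes. Of the 29, 8 lay above the level of the median feature. Among the 5 called higher were PLAUR, the urokinase receptor (0.83 ± 0.29, exact p = 0.0444), F3, tissue factor (0.47 ± 0.17, exact p = 0.0395), SERPINC1, antithrombin (0.39 ± 0.15, exact p = 0.0552), and PLAT, tissue plasminogen activator (0.70 ± 0.29, exact p = 0.018). PLAT was not called without low gain-low intake steer 4 (0.57), high gain-low intake steer 3 or low gain-high intake steer 2 (0.64 in both). The list median was 0.024, against -0.005 over all genes.

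**Figure D4:**
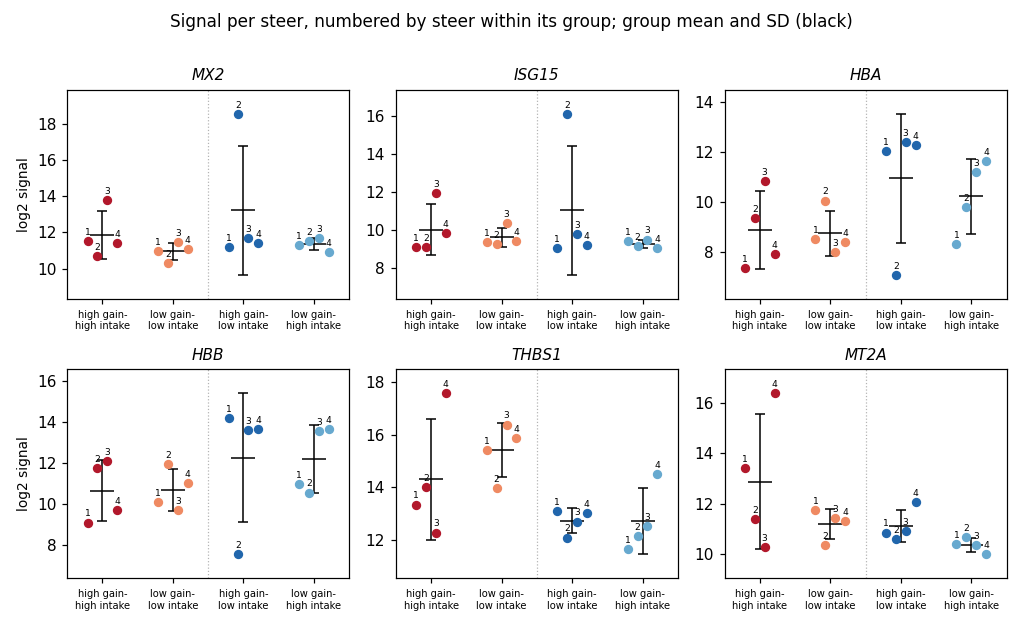
Log2 signal of 6 genes in each of the 16 steers, numbered within their group, with the group mean and SD in black. High gain-low intake steer 2 is the highest in MX2 (18.54) and ISG15 (16.14) and the lowest in HBA (7.09) and HBB (7.56), and high gain-high intake steer 4 is the highest in THBS1 (17.59) and MT2A (16.39).

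Type I interferon genes were lower in concordant steers in all 16 measured cases, but 0 passed an unadjusted limma p under 0.05. The median was -0.328, with -0.834 in the high gain contrast and 0.037 in the low gain contrast. MX2, an antiviral GTPase, measured 11.54, 10.67, 13.76 and 11.4 in high gain-high intake steers and 10.97, 10.31, 11.48 and 11.06 in low gain-low intake steers, against 11.21, 18.54, 11.67 and 11.42 in high gain-low intake steers and 11.28, 11.5, 11.7 and 10.92 in low gain-high intake steers. High gain-low intake steer 2 stood far above every other animal. IFIT2, another antiviral gene, was 11.75 in that steer and at most 8.77 in the others, and its difference of -0.76 was called only without high gain-low intake steer 1 (-0.93) or 4 (-0.94). Without steer 2 the list median was 0.082, the difference of MX2 was 0.01 in place of -0.88, and that of ISG15, a ubiquitin-like antiviral protein, was 0.50 in place of -0.35.

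Related immune genes gave a few single values. CXCL10, a chemokine induced by interferon, was -1.05 ± 0.47 (exact p = 0.0723). High gain-low intake steer 2 measured 14.37, and without that steer the difference was -0.65 and not called. The call was also lost, at -0.87 to -1.05, without high gain-high intake steers 1, 2 or 4, low gain-low intake steers 3 or 4 or low gain-high intake steers 3 or 4. PSMB10, an immunoproteasome subunit, was -0.55 ± 0.21 (exact p = 0.0595), with -0.68 in the high gain contrast and -0.42 in the low gain contrast. C3AR1, the receptor for complement fragment C3a, was 11.4, 11.18, 12.74 and 9.56 in high gain-high intake steers and 11.51, 12.23, 10.8 and 12.41 in low gain-low intake steers. It was 12.95, 13.32, 12.67 and 11.94 in high gain-low intake steers and 13.17, 12.05, 12.09 and 11.92 in low gain-high intake steers. In C3AR1 5 concordant steers lay below all discordant steers, and the difference was -1.03 ± 0.38 (unadjusted limma p = 0.0166, exact permutation p = 0.0218).

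Globin signal differed widely between steers, and the alpha chain was lower in concordant steers. HBA, the haemoglobin alpha chain, measured 7.38, 9.36, 10.85 and 7.94 in high gain-high intake steers and 8.52, 10.06, 8.01 and 8.4 in low gain-low intake steers, against 12.03, 7.09, 12.41 and 12.26 in high gain-low intake steers and 8.32, 9.81, 11.18 and 11.63 in low gain-high intake steers. Its difference was -1.77 ± 0.78 (unadjusted limma p = 0.0369, exact permutation p = 0.05). HBB, the beta chain, had -1.55 ± 0.89 (exact p = 0.115), and was called, at -2.33, without high gain-low intake steer 2, whose HBA signal was the lowest of the 16. TFRC, the transferrin receptor, was -0.50 ± 0.22 (exact p = 0.0396). HBA and TFRC were called in 6 and 7 of the 16 fits that each left out 1 steer. Their smallest differences were -1.52 for HBA without high gain-high intake steer 1 and -0.33 for TFRC without high gain-high intake steer 4, and their calls were lost with steers of all 4 groups left out. Of 13 erythroid markers 11 were lower and 2 were called lower, against 2.14% of all genes. All 11 were lower in both contrasts, against 27.4% of all genes, and 3 of the 13 lay above the level of the median feature. The number called was 0 without high gain-high intake steer 4, low gain-low intake steer 3 or high gain-low intake steer 1, and 4 without high gain-low intake steer 2. The list mean was 7.58 to 8.12 in concordant steers and 7.57 to 8.45 in discordant steers. The part of red cell content in the other results was not tested.

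Plasma cell markers were lower in 9 of 10 cases with 0 called and a median of -0.186. Of these 10, 5 were called lower without low gain-low intake steer 2 and 3 without high gain-high intake steer 4. Endothelial markers were lower in 12 of 15 cases with 1 called, CDH5, vascular endothelial cadherin (-0.32 ± 0.12, exact p = 0.0204). Natural killer and cytotoxic markers were lower in 11 of 15 with 1 called, NCR1, an activating receptor of natural killer cells (-0.35 ± 0.14, exact p = 0.026). NCR1 was not called without high gain-high intake steer 2 (-0.30), low gain-low intake steer 2 (-0.29) or low gain-high intake steer 1 (-0.28). T cell markers were higher in 14 of 20 with 1 called lower. TSHZ2, a transcription factor placed in that list, was -0.35 ± 0.12 (exact p = 0.13), and its contrasts pointed in opposite ways, with -0.996 in the low gain contrast and 0.30 in the high gain contrast. Of B cell markers 6 were higher and 8 lower with 0 called either way. Smooth muscle markers had 7 higher and 5 lower with 0 called, with medians of 0.413 in the high gain contrast and -0.577 in the low gain contrast.

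Metabolic lists held few calls. CPT1A, which admits long chain fatty acids to mitochondria, measured 12.35, 11.47, 11.65 and 14.14 in high gain-high intake steers and 11.42, 11.8, 13.38 and 12.6 in low gain-low intake steers, against 10.69, 9.97, 11.87 and 12 in high gain-low intake steers and 11.99, 11.34, 10.82 and 11.87 in low gain-high intake steers. The difference was 1.03 ± 0.42 (exact p = 0.0312), not called without high gain-high intake steer 4 (0.74), low gain-low intake steer 3 (0.85), high gain-low intake steer 2 (0.84) or low gain-high intake steer 3 (0.92). Of 19 beta oxidation genes 2 were called higher, against 2.58% of all genes, and the list median was 0.032.

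ELOVL5, a fatty acid elongase, was 0.61 ± 0.19 higher (exact p = 0.0107), with 0.60 in the high gain contrast and 0.62 in the low gain contrast. FOXO1, a transcription factor restrained by insulin, was 0.52 ± 0.20 higher (exact p = 0.0183). Oxidative phosphorylation genes had 16 higher and 18 lower with 1 called lower, and sterol synthesis genes 7 higher and 8 lower with 1 called higher. Of 15 circadian clock genes 2 were called higher and 1 lower, against 2.58% and 2.14% of all genes. CRY1, a repressor of the clock, was 0.35 ± 0.13 higher (exact p = 0.0124).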

How the data were processed

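RNA of 16 spleens was measured on Affymetrix Bovine ST arrays. The deposited log2 values are those of the authors, who corrected probes for GC content, stretched the signal distribution (signal space transformation) and applied robust multichip analysis in Affymetrix Expression Console. The labels also name Transcriptome Analysis Console, and for the arrays neither versions nor a genome build is stated in the labels or methods. The stretched scale enlarges fold changes, and the number of arrays limits the precision.

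Of 26773 features, 1776 whose ID precedes the first annotated ID were dropped. Of the 24997 tested, 18790 had 1 gene symbol, 385 several and 5822 none listed, and 18003 matched RefSeq. Means of 4 groups were fitted with limma 3.58.1 in R 4.3.3, and the contrast was the mean of the concordant groups minus that of the discordant groups. Its p-values were adjusted by Benjamini-Hochberg. Counts over 43 gene lists came from a second fit with features of a gene averaged (18444 genes). Exact permutation tests were two-sided over all 12870 choices of 8 of 16 steers, and their null is no group difference of any kind. Steers are numbered within groups in deposit order, and p-values measure the spread between these steers.

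Named were the 15 genes of each direction with the lowest p among those above the median signal, up to 6 of each list, those the study named, and those without overlap, and not all were printed. Heat shock members outside these, among them CRYAB and HSF1, were named to cover each role after their values were seen. Members and lists were chosen with earlier results of these data known. The fit was tested on simulated data. Alternatives were array weights, ordinary least squares as in the study's methods, moderation with a robust intensity trend, quantile normalization, median centring, a filter on dim features, all features, 2 groups without gain and intake, each steer left out and, added after the data were seen, identical features counted once.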

Additional observations from a re-analysis of the deposited data

Results flagged for a closer look

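Single steers stood apart within their group of 4 in 20 of 336 group and gene pairs, judged by the gap to the nearest steer as a share of the group's range. Chance gives about 1 in 20 such groups. High gain-low intake steer 2 accounted for 5 of them, above the others in MX2 (18.54), ISG15 (16.14) and IFIT2 (11.75) and below them in HBB (7.56) and HBA (7.09). The other 3 steers of that group measured 11.21 to 11.67 in MX2 and 12.03 to 12.41 in HBA.

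Among the concordant steers, high gain-high intake steer 2 was high in AHSA2 (10.57), steer 3 in IFIT2 (8.77) and steer 4 in AHSA1 (12.01), while low gain-low intake steer 1 was high in HSP90AA1 (16.82), steer 2 in PF4 (12.7) and steer 3 in ISG15 (10.35). Among the discordant steers, high gain-low intake steer 1 was high in CDH5 (11.21) and DDIT3 (9.63), steer 3 was high in SLC5A3 (13.77) and PTGES3 (15.68), and steer 4 was low in AHSA2 (9.5) and DNAJB4 (9.5). Low gain-high intake steer 1 was high in C3AR1 (13.17), steer 2 was low in AHSA1 (10.26) and steer 4 was low in CLK4 (12.14).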

How the results depend on the processing

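No paired analysis was possible because the labels carry no replicate numbers that join steers across groups. Over the alternatives other than leaving out a steer, 1106 to 1257 features passed an unadjusted p under 0.05, except that the filter to features above the median level, which tests fewer features, gave 627 (407 higher and 220 lower, of which 196 had both concordant means below both discordant means and 153 the low gain-low intake mean lowest). That filter also moved the erythroid list median to -1.55, as few of its members remained. Leaving out a steer gave 961 to 1430 features, 510 to 755 of them higher and 451 to 675 lower, and 0 to 1 after adjustment, where 1 appeared without low gain-low intake steer 2 and 1 without steer 4 of that group. The lower features with the low gain-low intake mean lowest were 238 to 489, the highest without low gain-low intake steer 2, and those with both concordant means below were 416 to 625. The heat shock count was 18 to 21 under the other alternatives. The sign of HSF1 turned under median centring (0.0106) and ranged from -0.15 to 0.15 when a steer was left out, MX2 from -1.21 to 0.0085 ISG15 from -0.68 to 0.50, STUB1 from -0.143 to 0.0417 and CDC37 from -0.18 to 0.0714. Of the 84 single-gene values, 9 lost their call under at least 1 of the alternatives and 11 in at least 1 of the fits that left out a steer.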
